A study of Mus musculus with 12 samples.

Results

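Transcripts of 8 genes of the liver's epithelial cells were followed in RNA-seq of whole livers: the keratins Krt8, Krt18, Krt7, Krt19 and Krt23, the secreted protein osteopontin (Spp1), the transcription factor Sox9 and the adhesion molecule Epcam. They were chosen by symbol from the 25611 genes counted, and 7 of the 8 were among the 13190 genes that passed the low-count filter, Krt23 being the exception. The 12 livers came from male C57BL/6J mice of 8 to 10 weeks, 4 in each of 3 groups. Sham mice had the abdomen opened without ligation or puncture. CLP mice underwent cecal ligation and puncture, a surgical model of polymicrobial sepsis. CLP+DCA mice had the same surgery and received 25 mg/kg of dichloroacetate (DCA), an inhibitor of all pyruvate dehydrogenase kinases, by intraperitoneal injection at 24 hr. All mice were given saline under the skin, and all livers were collected 30 hr post-surgery, which was 6 hr after DCA.

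Keratins form the intermediate filaments of epithelial cells, in which a type II keratin always pairs with a type I keratin. Hepatocytes hold a single pair, KRT8 with KRT18, while the cholangiocytes that line bile ducts also make KRT7 and KRT19. Sox9, Spp1 and Epcam are used as markers of cholangiocytes and of hepatocytes that take on duct features after injury, and Spp1 is also made by macrophages. Whole liver is mostly hepatocyte by mass, and in such bulk RNA fewer cells of a type and less RNA per cell cannot be told apart.

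Krt8 (NCBI Gene 16691) lies on mm10 chr15:101996711-102004342 on the minus strand, and Krt18 (16668) on chr15:102028216-102032026 on the plus strand, so that the pair is transcribed in opposite directions from start sites 23874 bp apart. Krt7 (110310, chr15:101412403-101427806) is on the same chromosome. On chromosome 11 are Krt19 (16669, chr11:100140811-100145926), Krt23 (94179, chr11:99477973-99493110) and Sox9 (20682, chr11:112782210-112787757). Spp1 (20750) is at chr5:104435111-104441053 and Epcam (17075) at chr17:87635979-87651127. The promoters of Krt8 and Krt18 are shown because the balance of these partners is one of the results. They were taken from RefSeq (GRCm38.p6, the build of the counts), which held windows from 250 bases before to 50 bases after the start for 6 of the 8 members. Each is written 5′ to 3′ in the direction of transcription, with matches in capitals to any of 8 short motifs searched on both strands. Of general promoter elements these were the TATA box (TATAAA), the CCAAT box and the GC box (GGGCGG). Of factors that act in inflamed liver they were the motifs of AP-1 (TGANTCA), STAT proteins (TTCNNNGAA) and C/EBP proteins (TTGCNNAA). For the Notch and Hippo pathways they were those of the Notch partner RBPJ (TGGGAA) and of TEAD factors (GGAATG).
Krt8, chr15:102004293-102004592, minus strand: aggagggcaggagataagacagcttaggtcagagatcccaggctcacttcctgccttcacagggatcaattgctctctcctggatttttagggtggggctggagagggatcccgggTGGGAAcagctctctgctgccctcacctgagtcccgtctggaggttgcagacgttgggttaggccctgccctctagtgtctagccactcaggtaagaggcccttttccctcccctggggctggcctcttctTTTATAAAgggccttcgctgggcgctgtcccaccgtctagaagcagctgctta
Krt18, chr15:102027966-102028265, plus strand: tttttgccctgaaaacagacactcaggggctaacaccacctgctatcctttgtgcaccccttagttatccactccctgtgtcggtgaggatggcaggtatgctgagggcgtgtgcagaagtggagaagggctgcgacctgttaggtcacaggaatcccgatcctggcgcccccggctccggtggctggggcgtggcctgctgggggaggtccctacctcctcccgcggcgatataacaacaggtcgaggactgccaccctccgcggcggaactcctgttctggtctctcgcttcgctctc
The Krt8 window held an RBPJ motif, which 25.6% of 32851 mouse promoter windows of this length also hold. It also held the letters of a TATA box, read on both strands in overlapping letters, which 13.6% hold. These matches began at -3 and -1 from the annotated start site and so lay across it. Whether they act as a TATA box was not tested. No match to any of the 8 motifs was found in the Krt18 window.

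Levels are given in CPM, reads scaled to the size of the library after TMM normalization. The liver's own genes dominated every library, with 15323 to 58481 CPM for albumin (Alb) and 17412 to 46626 CPM for transferrin (Trf). Between 24436513 and 44266819 reads per library were counted on genes. A pair of libraries stood apart from their groups, and results that rest on them are given with and without them, a choice made after their values were seen. The CLP 3 library held 2641 CPM over 10 striated muscle genes. CLP 2 had 3.02 CPM, 63 reads that covered all 10 genes, and the remaining libraries had 0.159 to 0.356 CPM. CLP 3 also held keratins of stratified epithelium, with Krt13 at 13.4 and Krt4 at 12.8 CPM. In the 11 other libraries Krt13 had no read and Krt4 at most 0.0950 CPM. There, 3 reads would be 0.0691 to 0.144 CPM. The CLP+DCA 3 library lay with the CLP livers. On the 367 genes called between CLP and sham, with the sham mean set to 0 and the CLP mean to 1, its position was 0.93, against 0.30 to 0.46 for the other CLP+DCA livers and 0.83 to 1.20 for CLP. None of the members is among these 367 genes.

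Per kilobase of the principal transcript, the members covered a wide range of levels in sham livers. Krt18 was highest at 145.2 ± 11.9 CPM per kilobase (SD, n = 4), followed by Krt8 at 117.1 ± 8.63 and Spp1 at 21.4 ± 1.86. Sox9 had 1.52 ± 0.443, Epcam 0.515 ± 0.144, Krt19 0.446 ± 0.0778, Krt23 0.237 ± 0.0634 and Krt7 0.137 ± 0.0315 CPM per kilobase. The ranges of Epcam and Krt19 overlapped, as did those of Krt23 and Krt7, while every other pair of neighbours in this order was separate. The hepatocyte pair thus stood far above the duct keratins, whose values rested on 13 to 31 reads per sham library for Krt7 and Krt19.

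None of the 7 members tested passed a false discovery rate (FDR) of 0.05 in CLP versus sham, in a test that called 2.78% of all genes (edgeR's quasi-likelihood test over all 12 libraries). At an unadjusted p under 0.05 there were 4 members (Krt8, Krt7, Krt19 and Sox9), where 28.6% of all genes were. The values of the 4 CLP and the 4 sham livers did not overlap for 5 of 7 members, against 26.5% of all genes: Krt8 was lower in CLP, and Krt7, Krt19, Spp1 and Sox9 were higher. In CLP+DCA versus sham and in CLP+DCA versus CLP, no member was called either, with backgrounds of 0.0379% and 0.00758%. In each of these contrasts 2 members had an unadjusted p under 0.05, Krt18 and Spp1 in the first and Krt8 and Krt19 in the second, where 13% and 10% of all genes did. The CLP+DCA livers overlapped sham for all 7 members (9.76% of all genes did not overlap). DESeq2 on the 8 libraries compared called 5 of 8 members in CLP versus sham (background 23.3%), Krt8 lower and Krt7, Krt19, Spp1 and Sox9 higher. With CLP+DCA 3 left out of the fit, edgeR called 4 of 8 (Krt7, Krt19, Spp1 and Sox9, background 23.8%). Without both CLP 3 and CLP+DCA 3 it called 2 of 8 (Krt19 and Sox9, background 31.1%). Krt23 was tested in these last fits as well and was not called.

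**Figure D1:**
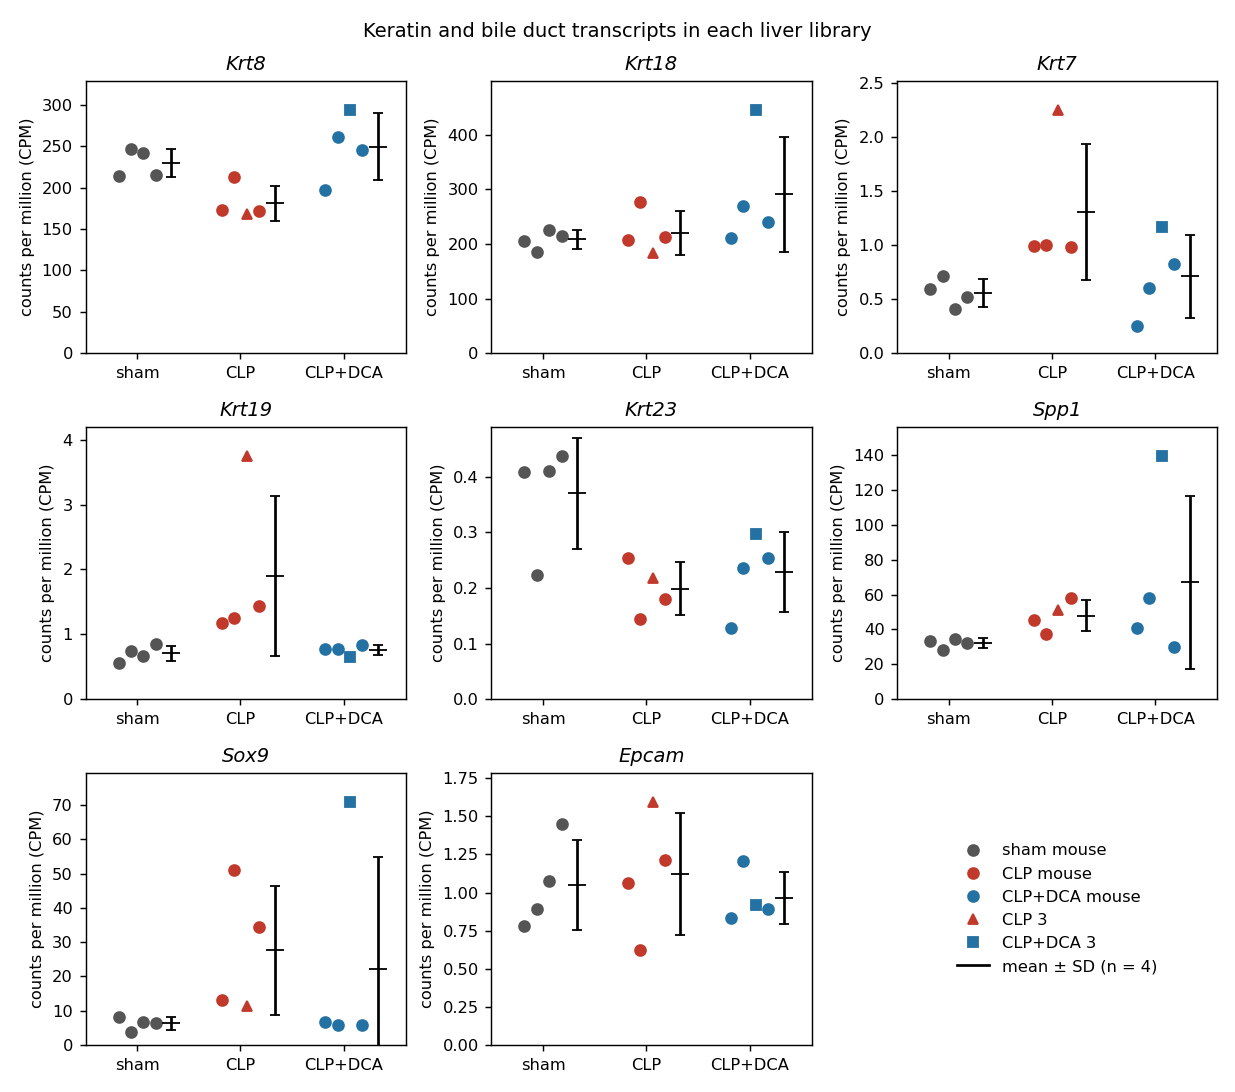
CPM of each member in each library by group, on linear axes that start at 0, with the group mean ± SD (n = 4) at the right of each group; the lower end of the Sox9 bar in CLP+DCA is cut at 0. The triangle (CLP 3) is the highest library for Krt7 and Krt19, at 2.25 and 3.75 CPM, and the square (CLP+DCA 3) the highest for Krt8, Krt18, Spp1 and Sox9.

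The hepatocyte keratins came first. Krt8, the type II partner, had 213.9, 246.2, 241.6 and 215.8 CPM in the sham livers and 172.5, 212.6, 168.0 and 171.3 CPM in the CLP livers. Every CLP liver lay below every sham liver, although CLP 2 was close to the lowest sham value. The means were 229.4 ± 16.9 and 181.1 ± 21.1 CPM (SD, n = 4 in both groups). CLP differed from sham by -0.34 on the log2 scale, with a standard error of 0.13 and an adjusted p of 0.128 in the edgeR test. In CLP+DCA, Krt8 had 196.6, 261.2, 293.4 and 245.3 CPM, of which 3 of 4 lay above all CLP livers. The difference of CLP+DCA from CLP was 0.46 on the log2 scale (standard error 0.13, unadjusted p = 0.00526, adjusted p = 0.332, edgeR), and without CLP 3 and CLP+DCA 3 it was 0.34 (adjusted p = 0.107).

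Krt18, the type I partner, did not share the lower level of Krt8 in CLP. It had 206.4, 186.3, 226.7 and 215.2 CPM in sham and 206.9, 277.4, 183.5 and 213.8 CPM in CLP, ranges that overlapped. The log2 fold change was 0.08 (standard error 0.22, adjusted p = 0.825, edgeR). In CLP+DCA the values were 210.3, 269.8, 445.2 and 241.2 CPM, and the 445.2 CPM of CLP+DCA 3 was the highest of all 12 livers. The fold change of CLP+DCA versus sham, 0.48 on the log2 scale (unadjusted p = 0.0459, adjusted p = 0.379, edgeR), was 0.20 without CLP 3 and CLP+DCA 3 (adjusted p = 0.623).

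The ratio of Krt8 to Krt18 reads within a library does not depend on how libraries are scaled. It was 1.04, 1.32, 1.07 and 1.003 in sham, and 0.833, 0.766, 0.916 and 0.801 in CLP, so that every CLP liver had fewer Krt8 than Krt18 reads and no sham liver did. In CLP+DCA it was 0.935, 0.968, 0.659 and 1.02. The 3 CLP+DCA livers other than CLP+DCA 3 lay above the CLP range. Of these, CLP+DCA 4 alone was within the sham range and the other two were below it, and CLP+DCA 3 had the lowest ratio of all 12. On the log2 scale the mean ratio was 0.14 ± 0.18 for sham, -0.27 ± 0.11 for CLP and -0.18 ± 0.29 for CLP+DCA (SD, n = 4). The ratios were not tested, and how often ratios of other gene pairs separate CLP from sham was not counted. Corrected for transcript length, the ratio was below 1 in all 3 groups, with means of 0.812, 0.609 and 0.657.

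**Figure D2:**
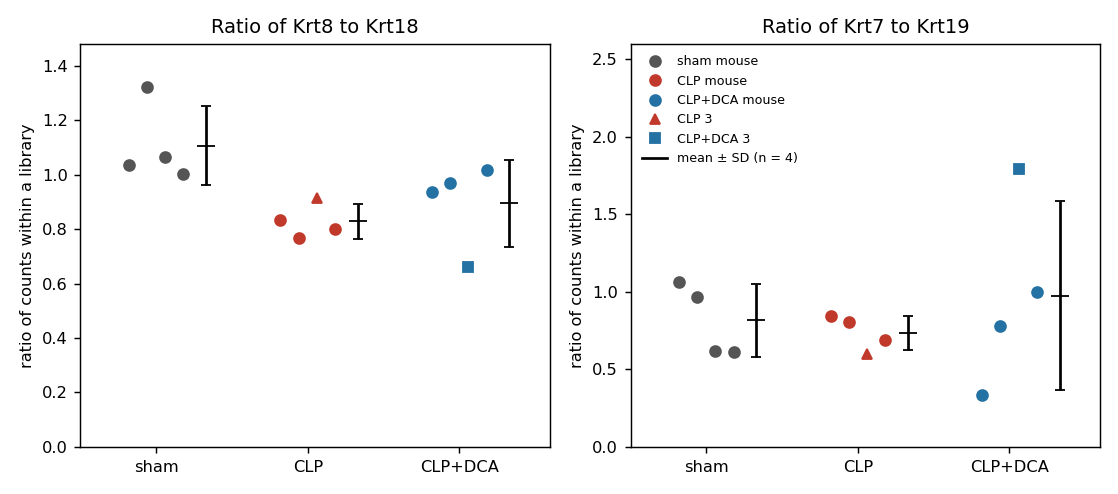
Ratio of reads of the type II to the type I partner within each library by group, with mean ± SD (n = 4). For Krt8 to Krt18 (left) the CLP livers, 0.766 to 0.916, lie below all sham livers, and for Krt7 to Krt19 (right) the groups overlap.

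The duct keratins Krt7 and Krt19 were higher in every CLP liver than in any sham liver, on small numbers of reads. Krt19 had 0.558, 0.743, 0.665 and 0.848 CPM in sham (15 to 31 reads) and 1.18, 1.24, 3.75 and 1.44 CPM in CLP (26 to 155 reads). The third CLP liver, the one with muscle and stratified epithelium transcripts, was by far the highest. The log2 fold change was 1.44 (standard error 0.36, adjusted p = 0.0544, edgeR). Without CLP 3 it was 0.85 (standard error 0.21) and passed the FDR with an adjusted p of 0.0402 (background 7.46%), the remaining 3 CLP livers lying between 1.18 and 1.44 CPM. The same value without CLP+DCA 3 as well had an adjusted p of 0.0126.

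In CLP+DCA, Krt19 had 0.766, 0.773, 0.650 and 0.827 CPM. All 4 values lay below every CLP liver and inside the sham range, including that of CLP+DCA 3, which resembled CLP on the 367 genes. Krt19 was the only 1 of 7 members whose CLP+DCA and CLP values did not overlap (background 4.37%). The log2 fold change of CLP+DCA versus CLP was -1.35 (standard error 0.36, unadjusted p = 0.00298, adjusted p = 0.284, edgeR), and -0.70 without CLP 3 and CLP+DCA 3 (adjusted p = 0.0580).

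Krt7, the type II partner of Krt19 in ducts, had 0.595, 0.718, 0.412 and 0.520 CPM in sham and 0.991, 1.01, 2.25 and 0.988 CPM in CLP. The CLP livers other than CLP 3 (43, 21 and 22 reads) lay above all sham livers. They were within 0.02 CPM of each other, a closeness that so few reads cannot resolve. The log2 fold change was 1.23 (standard error 0.43, adjusted p = 0.0980, edgeR) and 0.82 without CLP 3 (adjusted p = 0.189). In CLP+DCA the values were 0.255, 0.605, 1.16 and 0.827 CPM, 3 of them below all CLP livers and CLP+DCA 3 the exception. The Krt7 to Krt19 ratio was 0.613 to 1.07 in sham, 0.600 to 0.843 in CLP and 0.333 to 1.79 in CLP+DCA, and overlapped between all groups.

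**Figure D3:**
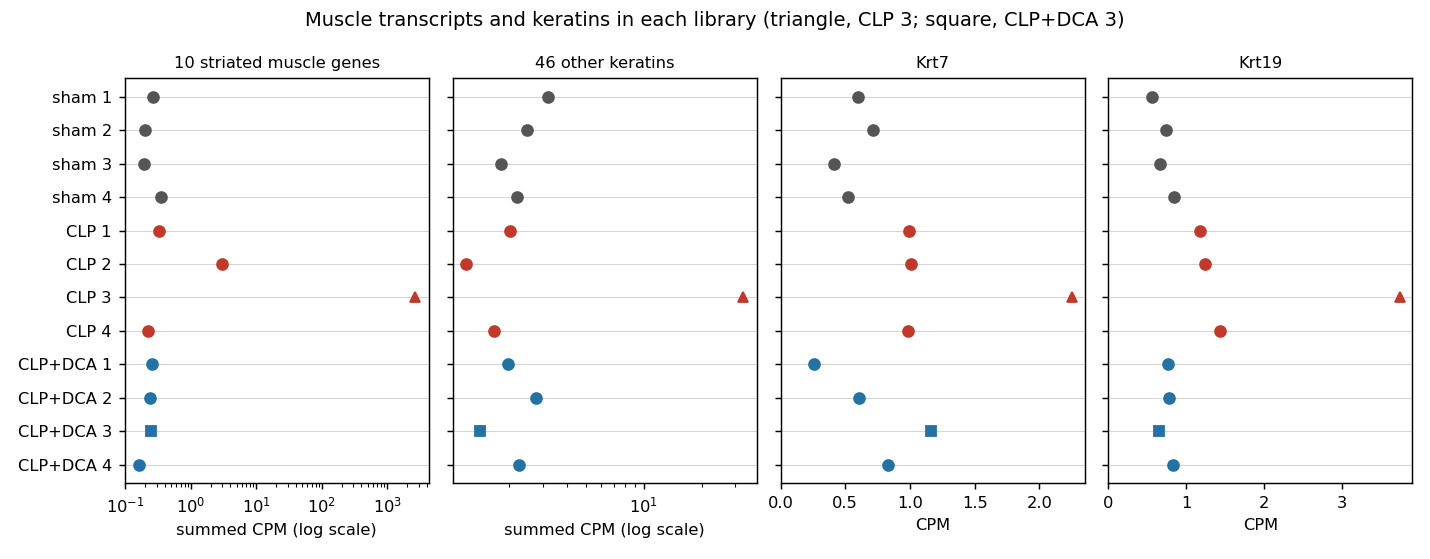
Summed CPM of 10 striated muscle genes and of 46 other keratins (log scales), and CPM of Krt7 and Krt19 (linear scales), in each of the 12 libraries. CLP 3 (triangle) is highest in all 4 panels, with 2641 CPM of muscle genes. The other 3 CLP livers lie above sham for Krt7 and Krt19. Their muscle genes sum to 0.323 CPM in CLP 1, 3.02 in CLP 2, which is above sham, and 0.225 in CLP 4.

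The keratins outside the membership were nearly silent. Of 46 other keratin genes in the table, Krt10, a keratin of suprabasal epidermis, alone passed the filter. Its log2 fold change in CLP versus sham was -0.82 (adjusted p = 0.111, edgeR). Without CLP 3 and CLP+DCA 3 it was -0.89 and called lower, in a fit that called 31.1% of all genes. The summed level of the 46 genes was 1.81 to 3.16 CPM in sham and 1.41 to 2.76 in CLP+DCA. It was 1.20 to 2.03 in the CLP livers other than CLP 3, which had 32.8 CPM. The part of these transcripts in the Krt7 and Krt19 values of CLP 3 was not tested. Besides the muscle genes, CLP 3 also had the highest sums of 6 mesothelium markers (15.3 CPM, at most 7.20 in the others) and of 10 stellate cell markers (431.3 CPM, at most 247.6), the latter list including the muscle filament gene Des at 172 CPM. Muscle and stratified epithelium lists were chosen after the data were seen.

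Krt23, a type I keratin described in stressed and injured liver, was at the limit of detection. It had 11, 9, 13 and 16 reads in the sham libraries, 11, 3, 9 and 4 in CLP, and 4, 7, 11 and 8 in CLP+DCA. Sham livers had a mean of 0.370 ± 0.0992 CPM, CLP livers of 0.199 ± 0.0474 and CLP+DCA livers of 0.229 ± 0.0723 (SD, n = 4). The groups overlapped through sham 2, which at 0.223 CPM was well below the other sham livers. The mean log2 CPM of CLP was 0.72 below that of sham (two-sided exact permutation test, p = 0.0571, where the smallest p that 4 against 4 livers allow is 0.0286). CLP+DCA differed from sham by -0.58 (exact p = 0.114) and from CLP by 0.14 (exact p = 0.571).

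Sox9, which directs the formation of bile ducts and marks hepatocytes with duct features, had the largest fold change of the members tested in CLP versus sham. It had 8.22, 3.81, 6.74 and 6.29 CPM in sham and 13.2, 51.1, 11.4 and 34.5 CPM in CLP. All CLP livers lay above all sham livers, but they varied among themselves from 11.4 to 51.1 CPM. In CLP+DCA, 3 livers had 6.54, 5.75 and 5.88 CPM, inside the sham range and below all CLP livers, and CLP+DCA 3 had 71.0 CPM, the highest of all. In every contrast of Sox9 that follows, the fold change, the call or both differed with and without this liver.

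With all 12 libraries the log2 fold change of Sox9 in CLP versus sham was 2.13 (standard error 0.86, adjusted p = 0.133, edgeR). Without CLP+DCA 3, which enters that contrast only through the shared estimate of spread, it was again 2.13, with a standard error of 0.47 and an adjusted p of 0.0132. CLP+DCA differed from CLP by -0.30 with all libraries (adjusted p = 0.923) and by -2.17 without CLP+DCA 3 (adjusted p = 0.0464, background 4.64%). It differed from sham by 1.84 (adjusted p = 0.389) and by -0.04 (adjusted p = 0.992) in the same fits. Leaving out a treated liver because it lies near CLP favours a difference from CLP, so the second set of values describes the 3 remaining livers and not the treatment.

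Spp1, the ligand osteopontin, had 33.6, 28.3, 34.7 and 32.2 CPM in sham and 45.4, 37.2, 51.1 and 58.0 CPM in CLP. The groups did not overlap, with means of 32.2 ± 2.81 and 47.9 ± 8.78 CPM (SD, n = 4 each). The log2 fold change was 0.58 (standard error 0.38, adjusted p = 0.322, edgeR), and without CLP+DCA 3 the same 0.58 had an adjusted p of 0.0441. In CLP+DCA the values were 40.5, 57.8, 139.4 and 30.0 CPM, spread over the range of both other groups and beyond it in CLP+DCA 3. CLP+DCA differed from CLP by 0.48 on the log2 scale, and by -0.17 without CLP+DCA 3, neither of them called (adjusted p = 0.705 and 0.609, edgeR).

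**Figure D4:**
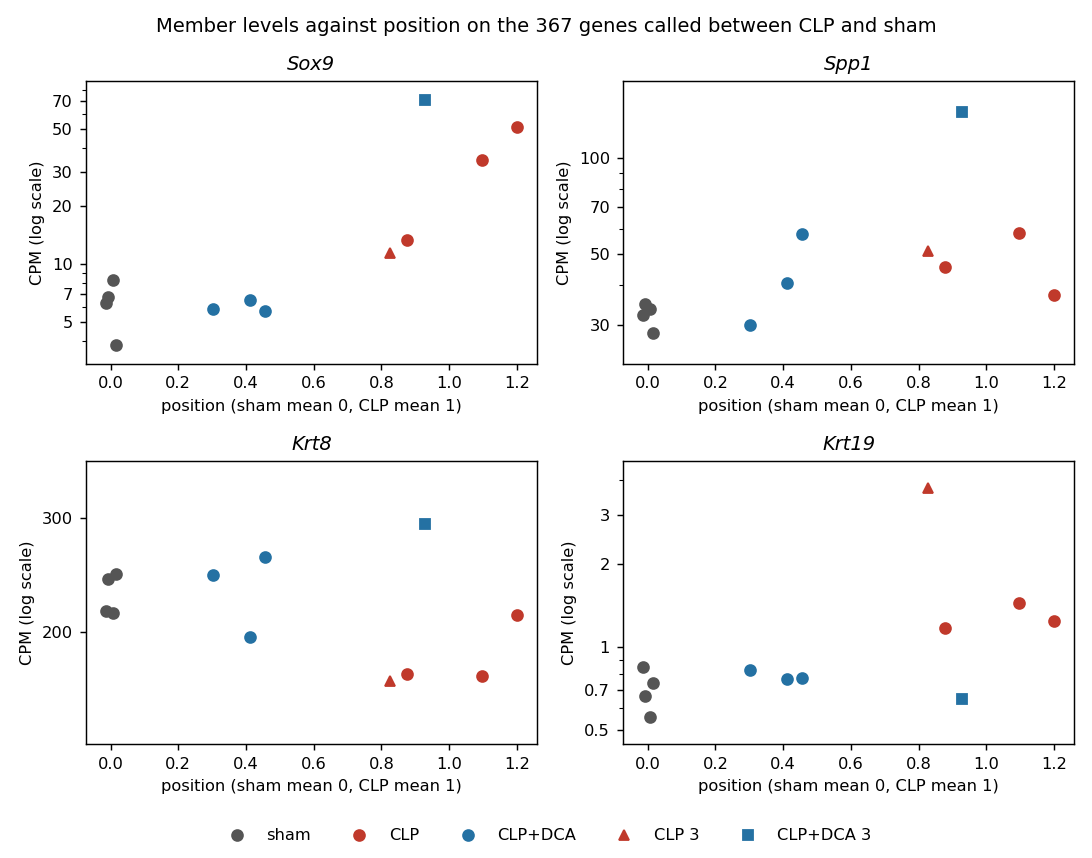
CPM (log scale) of Sox9, Spp1, Krt8 and Krt19 in each library against the library's position on the 367 genes called in CLP versus sham (sham mean 0, CLP mean 1). CLP+DCA 3 (square), at a position of 0.93, has the highest Sox9, Spp1 and Krt8 of all 12 livers and a Krt19 level of 0.650 CPM, within the sham range.

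CLP+DCA 3 also had the highest sum of 8 neutrophil markers, 54.5 CPM, where sham livers had 4.63 to 6.06 and CLP livers 28.0 to 40.8. The sum of 8 monocyte and macrophage markers was 45.2 CPM in CLP+DCA 3, 39.1 to 64.1 in CLP and 29.8 to 57.6 in sham. That of 8 Kupffer cell markers was 220.9 CPM in CLP+DCA 3, within the 165.9 to 280.0 CPM of sham and lower than the 259.0 to 337.3 CPM of CLP. CLP+DCA 1 and 2 had the highest Kupffer sums of all 12 livers, 426.7 and 412.3 CPM, and CLP+DCA 4 had 219.4. The part of these cells in the levels of Spp1 was not tested.

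Osteopontin binds CD44 and several integrins. Of 10 receptor genes listed, 9 were tested in CLP versus sham and all 9 fold changes were above 0, with a median of 0.31 where that of all genes was 0.02. Itga4, the α4 integrin chain found mainly on leukocytes, was called, with 4.65 to 6.70 CPM in sham, 15.2 to 47.1 in CLP and a log2 fold change of 2.31 (adjusted p = 0.0406, edgeR). Its values in CLP+DCA were 6.29, 9.58, 26.0 and 6.87 CPM, with CLP+DCA 3 inside the CLP range. Without CLP 3 and CLP+DCA 3, 4 of 9 were called higher in CLP, namely Itga4, Itgb3, Cd44 and Itga5, the last 3 named after their values were seen, in a fit that called 31.1% of all genes (15.9% higher). Of these, Itga4 and Itgb3 were called lower in CLP+DCA than in CLP in that fit, which called 16.9% of all genes in this contrast. Leaving out CLP+DCA 3 favours such a difference. Over all 12 libraries no receptor gene was called there, but only 0.00758% of all genes were.

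Epcam, an adhesion molecule of duct cells and not of mature hepatocytes, did not separate the groups. It had 0.781, 0.891, 1.08 and 1.45 CPM for sham, 1.06, 0.622, 1.60 and 1.21 for CLP, and 0.830, 1.21, 0.921 and 0.891 for CLP+DCA. The log2 fold change was 0.11 in CLP versus sham (standard error 0.29, adjusted p = 0.820, edgeR) and -0.12 without CLP 3. In CLP+DCA versus CLP it was -0.24 (standard error 0.29, adjusted p = 0.817). These rest on 13 to 66 reads per library.

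**Figure D5:**
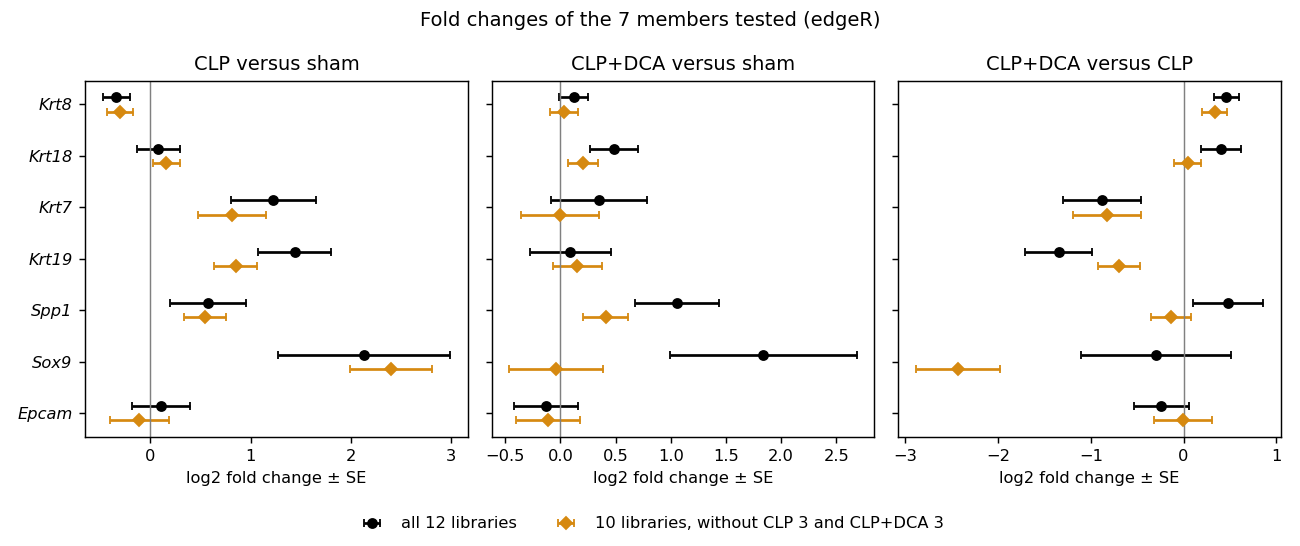
Log2 fold changes with standard errors of the 7 members tested by edgeR in the 3 contrasts, from all 12 libraries (black) and from 10 libraries without CLP 3 and CLP+DCA 3 (orange). Leaving out both libraries moves Krt19 in CLP versus sham from 1.44 to 0.85 and Sox9 in CLP+DCA versus CLP from -0.30 to -2.43.

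Other genes of the bile duct were read from a list of 20, of which 15 passed the filter. Their median log2 fold change in CLP versus sham was 0.58, with 12 of 15 above 0. Over all genes the median was 0.02, with 6844 of 13190 above 0. Without CLP 3 and CLP+DCA 3 the median of the list was 0.25, and that of all genes 0.008. Muc1, a membrane mucin of duct and other glandular epithelium, was the single gene called, where 2.78% of all genes were. It had 0.602 to 0.744 CPM in sham and 1.45 to 3.10 in CLP (log2 fold change 1.67, adjusted p = 0.0479, edgeR). In CLP+DCA, Muc1 had 0.734, 0.941, 2.57 and 0.859 CPM, with CLP+DCA 3 again inside the CLP range. Mmp7, a secreted protease made by injured duct cells, had 0 to 0.127 CPM in sham and 1.84 to 5.21 in CLP (adjusted p = 0.0568). It had 0.160, 0.437, 5.98 and 0.0318 CPM in CLP+DCA. Without CLP 3 and CLP+DCA 3, Muc1, Mmp7, Cd24a and Ehf were called higher in CLP than in sham and lower in CLP+DCA than in CLP, and no other gene of the list was called in these contrasts. These 4 of 15 stand against 31.1% of all genes called in the first contrast and 16.9% in the second. All but Muc1 of these were named after their values were seen. Over all 12 libraries none of the 15 was called in CLP+DCA versus CLP, but only 0.00758% of all genes were. As for Sox9, leaving out CLP+DCA 3 favours a difference from CLP.

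Krt8 and Krt18 filaments are anchored at desmosomes and bound by linker proteins. Of 22 such partners and other filament genes, 21 were tested and none was called in CLP versus sham. The smallest p-values belonged to the linker epiplakin (Eppk1), with a log2 fold change of 1.01 (adjusted p = 0.0677, edgeR), and to desmoplakin (Dsp), which ties keratin to desmosomes, at -0.49 (adjusted p = 0.0792). Without CLP 3 and CLP+DCA 3, 4 of 21 were called higher (Eppk1 among them) and 2 lower, against 31.1% of all genes called in either direction. Among 15 genes of epithelial junctions, none was called, and E-cadherin (Cdh1) and cingulin (Cgn) had the smallest p, with log2 fold changes of -0.52 and 0.33 (adjusted p = 0.102 and 0.159). Without CLP 3 and CLP+DCA 3, 4 of 15 junction genes were called higher and 1 lower, near the same background. In CLP+DCA versus CLP 5 were called lower in that fit (16.9% of all genes called), a difference that leaving out CLP+DCA 3 favours.

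The Notch and Hippo pathways act upstream of Sox9 in duct formation. Of 13 Notch genes tested, the ligand gene Dll1 was called, at 3.96 to 4.87 CPM in sham and 1.39 to 2.56 in CLP (log2 fold change -1.08, adjusted p = 0.0325, edgeR), and the median was -0.02. Of 16 Hippo genes, Cyr61, a target of the coactivator YAP, was called lower, with 4.60 to 18.8 CPM in sham and 2.29 to 4.35 in CLP (log2 fold change -2.08, adjusted p = 0.0385). The Hippo median was 0.20, with 12 of 16 above 0, where all genes had 0.02 and 6844 of 13190 above 0. In the fit without CLP 3 and CLP+DCA 3, 5 of 15 Hippo genes tested were called higher and 1 (Cyr61) lower, against 31.1% of all genes called. Ctgf, another YAP target, was named after its values were seen. It had 1.77 to 5.06 CPM in sham and 6.01 to 21.0 in CLP, a log2 fold change of 1.83 (adjusted p = 0.0720), so that these targets had fold changes of opposite sign.

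Lists of other cell types that could hold these transcripts were read in the same way. Of gallbladder (1 of 4 genes tested), intestinal epithelium (3 of 7) and pancreas (2 of 6) markers, none was called in CLP versus sham, nor were those of stellate cells, mesothelium, Kupffer cells, endothelium or lymphocytes. Without CLP 3 and CLP+DCA 3, a fit that called 31.1% of all genes, 6 of 10 stellate cell, 2 of 7 endothelium and 1 of 8 Kupffer cell markers were called higher in CLP, and all 3 lymphocyte markers tested and 1 of 2 pancreas markers lower. Also in that fit, 6 of 7 neutrophil markers were called higher and 1 lower, and 2 of 10 hepatocyte markers higher and 2 lower. Of monocyte and macrophage markers 2 of 6, and of stratified epithelium genes 2 of 4, were called higher. Summed over 8 lymphocyte markers, the CLP livers had 0.335 to 1.52 CPM (7 to 63 reads) and sham livers 1.81 to 3.32 (63 to 105 reads). These sums rest on few reads. They did not overlap, and neither did the values of 26.5% of all single genes. Over all 12 libraries, the neutrophil marker Retnlg (log2 fold change 3.10, adjusted p = 0.0254, edgeR) and the myeloid integrin Itgam (3.42, adjusted p = 0.0482) were called higher. Alb was called lower (-1.11, adjusted p = 0.0463), but the 10 hepatocyte markers went both ways, 4 above 0 and 6 below, with a median of -0.19. Of 10 stratified epithelium genes, Trp63 and Ly6d were called higher, at 0.415 to 4.45 and 1.84 to 3.31 CPM in CLP against 0 to 0.0821 and 0.246 to 0.990 in sham. Trp63 was highest in CLP 2 and not in CLP 3, the library with the stratified keratins. In both contrasts of CLP+DCA, no gene of any list was called over all 12 libraries. The fit to all libraries called only 0.0379% of all genes against sham and 0.00758% against CLP. With so few calls, their absence from short lists says nothing about these cell types. When CLP 3 and CLP+DCA 3 were left out, 5 of 7 neutrophil and 4 of 10 stellate cell markers were among those called lower in CLP+DCA than in CLP (16.9% of all genes called). Leaving out CLP+DCA 3, which lay near CLP, favours such differences.

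The genes whose profiles were most like a member were found by the root mean square difference of log2 CPM, each gene centred on its mean over the 12 livers. For Krt8 these were Rela, Eif3d and Seh1l (0.13 to 0.14), and for Krt18 they were Chic2, Gars and Rars (0.13 to 0.14). Krt8 and Krt18 were not each other's nearest, with Krt18 at rank 1626 of 13189 genes for Krt8 and Krt8 at rank 611 for Krt18, and at ranks 2558 and 993 without CLP 3. Nearest to Krt7 were Sgcb, Tead4 and Ehf (0.39 to 0.40). Krt7 was at rank 154 for Krt19 and Krt19 at rank 102 for Krt7, a closeness that rested on CLP 3, without which the ranks were 8405 and 2839. Nearest to Sox9 were Hid1, Col4a1 and Erp27 (0.27 to 0.33), to Spp1 Casp4, Trim47 and Hmox1 (0.25 to 0.26), and to Epcam B3glct, Cdc25b and Ssbp2. Without CLP 3, none of the genes named for Krt8 or Krt7 was among the 3 nearest, while 2 of 3 were for Krt18 and Sox9, 1 of 3 for Epcam and all 3 for Spp1.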

How the data were processed

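Livers were harvested from 4 mice a group and RNA was sequenced as poly(A)-enriched, 100 bp paired-end libraries. The authors aligned reads to mm10 by STAR 2.5, assigned them to genes by featureCounts (Subread 1.5.0-p1) and ran DESeq2. They deposited raw counts, 1 column per mouse. The annotation, the strand setting and the treatment of reads that fit several genes, which could affect keratins with pseudogenes, are not given in the sources used here.

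Genes were kept with edgeR's filterByExpr (minimum count 10), scaled by TMM and fitted with a robust quasi-likelihood model (edgeR 4.0.16, legacy setting, R 4.3.3) over all 12 libraries, and p-values were adjusted over 13190 genes (Benjamini-Hochberg, FDR 0.05). The standard error is the log2 fold change over the square root of F. CPM are on TMM library sizes, and log2 CPM have a prior count of 2. Krt23, which did not pass the filter over all 12 libraries, was compared by exact permutation. DESeq2 1.42.0 and voom (limma 3.58.1) were alternatives, and the edgeR script was tested on simulated data. Lengths are of the GENCODE principal transcript.

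All members were described. From each list were named the genes called at FDR 0.05 in any contrast, at most 4 a contrast. Where none was called, the 2 with the smallest p were named for filament partners and epithelial junctions. For the lists of other cell types without a call they are not reported here. For each member tested, the 3 genes with the most similar profile were named, except that those of Krt19 are not reported here. The members, lists and rules were chosen with earlier results of these data known, and the choice to leave out CLP 3 and CLP+DCA 3 was made after seeing them. Nothing says that livers were sequenced in batches. PCR copies were not marked by molecular identifiers, so that read numbers alone understate the error, and the SD between mice is given instead.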

Additional observations from a re-analysis of the deposited data

Results flagged for a closer look

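In groups of 4 livers, 5 of 24 combinations of gene and group held a liver separated from the rest by most of the group's range (Dixon's 95% criterion on the gap to the nearest liver), which chance gives for about 1 in 20. Krt7 in CLP was flagged for CLP 3, at 2.25 CPM against 1.01 in the nearest liver, and Krt19 in CLP for the same library, at 3.75 against 1.44 CPM. Sox9 in CLP+DCA was flagged for CLP+DCA 3, at 71.0 against 6.54 CPM. Krt8 in CLP was flagged for CLP 2, at 212.6 against 172.5 CPM, and Krt23 in sham for sham 2, at 0.223 against 0.409 CPM.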

How the results depend on the processing

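In CLP versus sham, where edgeR over all libraries called 0 of 7 members and 367 genes, DESeq2 on all 12 libraries called 1 member (Krt19) and 1894 genes, DESeq2 on the 8 libraries compared 5 and 3428, edgeR on these 8 libraries 4 and 2387, voom 4 and 3417, and edgeR with legacy=FALSE 1 (Krt19, adjusted p = 0.0498) and 456. The legacy setting, listed as an alternative, is the package default and so equals the values reported. RLE scaling, library size alone, no filter, 1 CPM in every library of a group and no robust estimation called 0 members. Leaving out single livers gave 0 to 4, with 1 without CLP 3 and 4 without CLP+DCA 3, and leaving out both gave 2 members and 4104 genes. Krt23 was also tested, and not called, by DESeq2 and by edgeR without CLP 3, without CLP+DCA 3 or without both. In CLP+DCA versus CLP, voom called 1 of 7 members (Krt7, with 9.76% of all genes), leaving out both called 1 (Sox9, with 16.9%), and single livers gave 0 to 1 (Sox9 without CLP+DCA 3, with 4.64%). In CLP+DCA versus sham every alternative run called 0. Library size alone moved the median of all genes by -0.17 in CLP versus sham and by 0.11 in CLP+DCA versus CLP (log2), and took the share of calls that were higher in CLP from 58.9% to 47.8%.

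For the members 537 values were recomputed, as fold changes against the FDR. For Krt23 they were mostly differences of log2 CPM against an unadjusted exact p of 0.05. Of all 537, 490 kept direction and side of the threshold. Another 26 newly passed it, 1 of them Krt23 in CLP versus sham (exact permutation test, p = 0.0286). The other 21 changed sign, none of which was called, and the cause was not tested. In CLP versus sham these were Krt18 (-0.11 by library size alone, -0.051 to 0.16 leaving out single livers) and Epcam (-0.032 by library size alone, -0.11 without CLP 3 and CLP+DCA 3, -0.12 to 0.30 for single livers). In CLP+DCA versus sham they were Krt8 (-0.072 by voom), Krt7 (-0.62 by voom, -0.0046 without both livers, -0.0030 to 0.62 for single livers), Krt19 (-0.00027 to 0.19), Sox9 (-0.038 without both, -0.041 to 2.18) and Epcam (-0.25 to 0.067). In CLP+DCA versus CLP they were Spp1 (-0.17 by voom, -0.13 without both, -0.17 to 0.73) and Sox9 (-2.17 to 0.19, above 0 without CLP 2 or without any CLP+DCA liver other than CLP+DCA 3).

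The replicate numbers did not pair the livers: 1 of 12 same-numbered pairs correlated above 0.1 in their deviations from the group means (-0.46 to 0.55), and 3 of 12 libraries correlated best with their own number. With the replicate block, 0 members were called in each contrast and 46 genes in CLP versus sham, and Krt19 there had 1.33 (adjusted p = 0.115). Krt7, Krt19, Krt23 and Epcam rest on few reads, which adds counting error to the spread between livers.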
